A study of Homo sapiens with 8 samples.

Results

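The genes described here are 10 members of the BCL2 family, the proteins that decide whether a cell's mitochondria are opened during apoptosis. They were taken by symbol: BCL2, BCL2L1, MCL1, BAX, BAK1, BID, BAD, BBC3, PMAIP1 and BCL2L11. In the authors' deposited table of transcript stability ratios, 15 of 39745 transcript accessions belonged to them, from 1 to 2 per gene, and all 10 genes were measured. The cells were MDA-LM2, lung-metastatic breast cancer cells derived from the MDA-MB-231 line. They were transfected with a control siRNA or with 1 of 2 siRNAs against TARBP2, a double-stranded RNA-binding protein known as a partner of Dicer. At 48 h after transfection RNA came from untreated cells (0 h) or from cells kept for 18 h with alpha-amanitin at 10 µM (spelled alpha-amanitine in the labels). The drug blocks RNA polymerase II, so that the loss of a transcript over this time reflects its decay. The 4 groups were control siRNA at 0 h, control siRNA at 18 h, TARBP2 knock-down at 0 h and TARBP2 knock-down at 18 h, with 2 Illumina BeadChip arrays each. No agent or allele beyond the transfection is named as shared by all groups. In both knock-down groups, array 1 carried siTARBP2-1 and array 2 siTARBP2-2. The control arrays are likewise titled siControl-1 and siControl-2, and the titles do not say whether these were different siRNAs. The titles call the comparison cells siControl, while the design text calls them mock-transfected. If they had no siRNA, a response to any siRNA and a response to loss of TARBP2 cannot be told apart.

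Members of this family share short BCL2 homology (BH) regions and bind each other at the outer mitochondrial membrane. BCL2, BCL-XL (from BCL2L1) and MCL1 hold back cell death, BAX and BAK1 form the pores that release cytochrome c, and the BH3-only proteins BID, BAD, PUMA (BBC3), NOXA (PMAIP1) and BIM (BCL2L11) either block the survival proteins or activate the pore formers. Both MCL1 and PMAIP1 are known for short-lived transcripts and proteins.

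The measure is the log2 of transcript stability in knock-down over control cells, with 1 value per accession and no replicates. By its header, a value above 0 means that the transcript was relatively more stable in knock-down cells. The formula behind it is not known here, and it gives neither a half-life nor a level. An accession is classed as stabilized in the authors' deposited table above a log2 value of 0.322, which is 1.25-fold, and 0.8-fold was used here as the matching limit on the low side. The files do not pair array probes with genes. Levels in each array, the efficiency of the knock-down, markers of the cell line and a test for any single member could therefore not be had. TARBP2 itself has stability ratios of -0.12 and 0.12 on its accessions NM_134323 and NM_134324 in the authors' deposited table, which do not check the knock-down.

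The arrays give a scale for the error of such a ratio. Between 15541 and 17619 of 47321 probes per array were detected, and r between replicate arrays, taken over probes, was 0.994 to 0.997. Over the 18664 probes detected in at least 2 arrays, the median standard error of the difference between the 18 h changes of the arms was 0.134 on the log2 scale (2 arrays per group, limma). It is an error of unnamed probes, not of the members, and the error of a single member may be larger or smaller. The root mean square error of these probes was 0.204. Their differences had an SD of 0.368, where the deposited ratios of all accessions have an SD of 0.227. The error is therefore not shown to be on the scale of the ratios, and serves as a rough guide. The ratio table covers more accessions than there were detected probes, and whether each member's signal stood above background was not tested.

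The family had no common direction. Of the 15 accessions, 7 lie on the high side of 0 in the authors' deposited table and 8 on the low side, where 52.5% of all accessions lie above 0. The median log2 ratio of the 15 is -0.05, beside 0.01 over all 39745. By gene, the authors' deposited table puts 10759 of all 19468 means above 0. Of the 10 members it puts 5 means above 0 and 5 below, from -0.25 for BID to 0.34 for BCL2L11. Their spread was like that of the table as a whole, with an SD of 0.214 over the member accessions and 0.227 over all accessions of the authors' deposited table. Of the 15, 2 accessions pass 1.25-fold in the authors' deposited table (13.3%, where 8.45% of all accessions do), and both belong to BCL2L11. In the other direction, 0 of the 15 lie below 0.8-fold in the authors' deposited table, where 6.31% of all accessions do. Messenger RNA accessions, the kind all 15 are, pass these limits in 9.71% and 5.5% of cases in the authors' deposited table. With counts this small, the shares of the members are not set apart from those backgrounds, and no test was made.

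**Figure D1:**
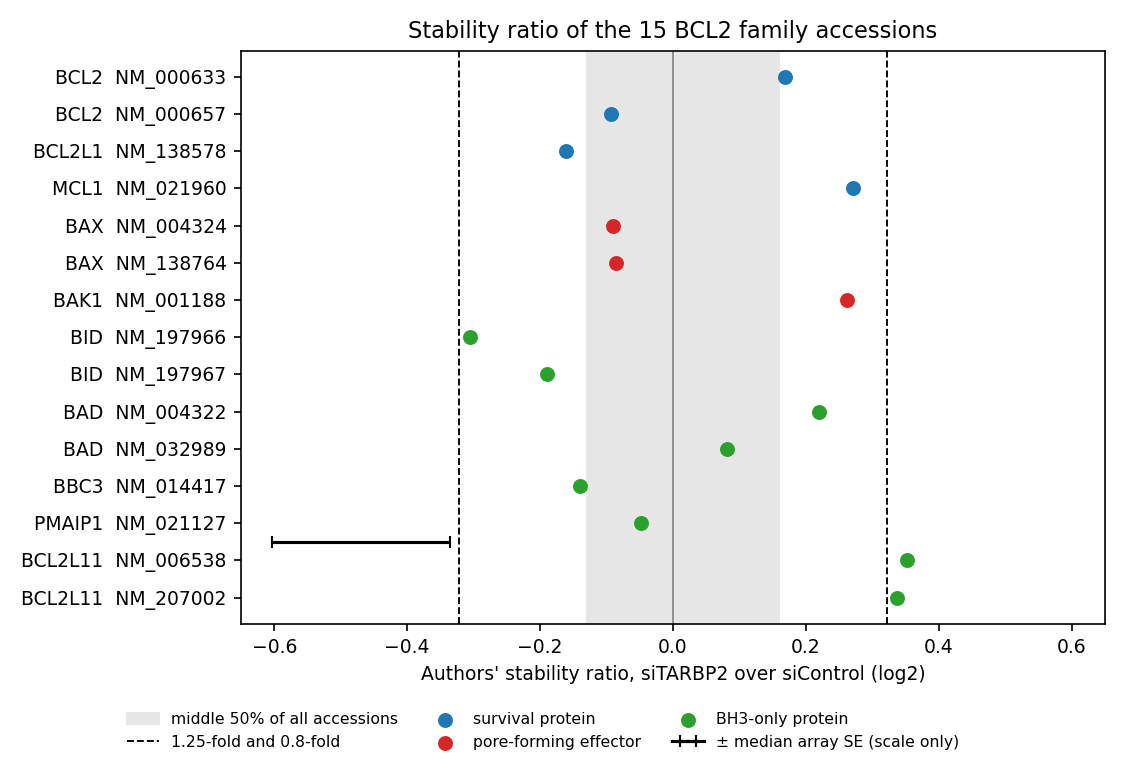
Each point is the log2 stability ratio (siTARBP2 over siControl, horizontal axis) of 1 accession, coloured by the role of its protein. The grey band holds the middle 50% of all 39745 accessions, the dashed lines stand at 1.25-fold and 0.8-fold, and the bar at the lower left shows the median array standard error of 0.134 in both directions as a scale only. Points of each role lie on both sides of 0, and the BCL2L11 accessions alone lie beyond a dashed line.

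Among the survival genes, MCL1 had the highest ratio. It encodes a short-lived guardian that binds BIM, NOXA and BAK, and its accession NM_021960, the transcript of the full-length protein, has a log2 ratio of 0.27 (1.21-fold) in the authors' deposited table. That lies above 88.0% of all accessions of the authors' deposited table and 0.05 short of the stabilized class. BCL2L1 stood on the other side of 0. Its accession NM_138578, which encodes the survival form BCL-XL, has a log2 ratio of -0.16 (0.895-fold) in the authors' deposited table, with 20.5% of all accessions lower. The short splice form of BCL2L1, which promotes death, was not analysed here.

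BCL2 itself gave different answers on its accessions. The alpha form NM_000633, which encodes the membrane-anchored protein, has a log2 ratio of 0.17 (1.12-fold) in the authors' deposited table. The beta form NM_000657, whose protein lacks the C-terminal membrane anchor, has -0.09 (0.938-fold) in the authors' deposited table. They differ by 0.26 on the log2 scale (1.2-fold) and lie on opposite sides of 0, so the gene mean of 0.04 in the authors' deposited table stands for neither. Neither form reaches the stabilized class or 0.8-fold.

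The pore-forming effectors BAX and BAK1 carry out the same step and can largely stand in for each other, but their ratios lay apart. BAK1, measured on NM_001188, has a log2 ratio of 0.26 (1.2-fold) in the authors' deposited table, above 87.2% of all accessions. BAX is measured on NM_004324, the beta form, with -0.09 (0.94-fold) and on NM_138764, the epsilon form, with -0.08 (0.943-fold) in the authors' deposited table. Both BAX accessions lie within the middle 50% of the table, and BAK1 lies above it. The alpha form of BAX, the usual pore former, was not analysed here.

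The BH3-only genes held both ends of the family. BCL2L11 encodes BIM, a strong killer that binds every survival protein of the family and can activate BAX and BAK directly. Its accessions NM_006538 and NM_207002 have log2 ratios of 0.35 (1.28-fold) and 0.34 (1.26-fold) in the authors' deposited table, above 93.3% and 92.5% of all accessions. Both are classed as stabilized, by margins of 0.03 and 0.016 on the log2 scale in the authors' deposited table, each smaller than the array standard error of 0.134. Where a gene has exactly 2 accessions, both are classed as stabilized in 32 of 2131 genes (1.5%) of the authors' deposited table. That share lends the BCL2L11 classes no weight. Its accessions differ by only 0.014 and may have been read by the same probe, and it is the highest of the 10 genes.

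BID was the lowest. It is cut by caspase 8 and carries the signal of death receptors to the mitochondria. Its accession NM_197966 has a log2 ratio of -0.31 (0.809-fold) in the authors' deposited table, with 7.2% of all accessions lower, and it stops 0.017 short of 0.8-fold. The other accession, NM_197967, has -0.19 (0.877-fold) in the authors' deposited table. Both lie below the middle 50% of all accessions.

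The remaining BH3-only genes lay between. BAD, a growth-factor-controlled antagonist of BCL2 and BCL-XL, has log2 ratios of 0.22 (1.16-fold) on NM_004322 and 0.08 (1.06-fold) on NM_032989 in the authors' deposited table. For BBC3, which encodes the killer PUMA, NM_014417 has -0.14 (0.907-fold) in the authors' deposited table. PMAIP1, which encodes NOXA, the partner that drives MCL1 to degradation, has -0.05 (0.967-fold) on NM_021127 in the authors' deposited table. Of these, only the first BAD accession lies above the middle 50% of all accessions, and BBC3 alone lies below it.

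In order of the gene means of the authors' deposited table, BCL2L11 at 0.34 is followed by MCL1 at 0.27, BAK1 at 0.26, BAD at 0.15, BCL2 at 0.04, PMAIP1 at -0.05, BAX at -0.09, BBC3 at -0.14, BCL2L1 at -0.16 and BID at -0.25. The range from first to last is 0.59 on the log2 scale. The 9 steps between neighbours ran from 0.009 between MCL1 and BAK1 to 0.113 between BAD and BCL2. All were smaller than the array standard error of 0.134, but sorting makes this likely, since 9 steps share a range of 0.59. That error also belongs to a probe's difference between arms, not to a gap between genes. Whether neighbouring genes differ cannot be read from these steps. Taken 1 by 1, 4 of the 15 accessions lie farther from 0 than 2 array standard errors (0.268) in the authors' deposited table, where 21.8% of all accessions do: MCL1, both of BCL2L11 and the lower of BID. MCL1, at 0.271 in the authors' deposited table, only just passes. That count rests on the median error, a rough guide only, and the root mean square error of the same probes was larger, at 0.204. The member ratio farthest from 0, 0.352 for BCL2L11 in the authors' deposited table, is less than 2 times that larger error.

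Grouped by role, both directions recurred. The survival genes have a median of 0.04 over 3 gene means, the BH3-only genes -0.05 over 5, and the effectors lie at -0.09 and 0.26 in the authors' deposited table. The survival median is the mean of BCL2, whose accessions lie on opposite sides of 0. Over its 8 accessions the BH3-only median is 0.02 in the authors' deposited table, so its sign depends on the summary chosen. Known partners stood on the same side of 0 in some cases and on opposite sides in others. MCL1 stands at 0.27 and PMAIP1, its antagonist, at -0.05 in the authors' deposited table. BAK1 and BCL2L1, whose protein restrains it, stand at 0.26 and -0.16 in the authors' deposited table. MCL1 and BCL2L11, whose proteins bind each other, are both on the high side.

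The accessions of 1 gene could be compared for BCL2, BAX, BID, BAD and BCL2L11. The difference between them was 0.005 for BAX, 0.014 for BCL2L11, 0.116 for BID, 0.138 for BAD and 0.262 for BCL2 in the authors' deposited table. Over all 2131 genes with exactly 2 accessions in the authors' deposited table, the median difference was 0.198, with quartiles of 0.096 and 0.348. BCL2 exceeded that median and the other 4 genes stood under it. The differences of BAX and BCL2L11 were among the smallest, with 1.5% and 4.13% of these genes closer together in the authors' deposited table. No source used here says whether accessions of a gene were read by the same probe, so they do not count as independent measurements. Opposite signs were found for 1 of the 5 member genes, BCL2, and for 47.0% of the 2131 genes in the authors' deposited table. Many known transcripts of these genes had no value: RefSeq curates 18 transcripts for BCL2L11, 11 for BCL2L1, 9 for BAX and 7 for BID, of which 2, 1, 2 and 2 were matched.

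**Figure D2:**
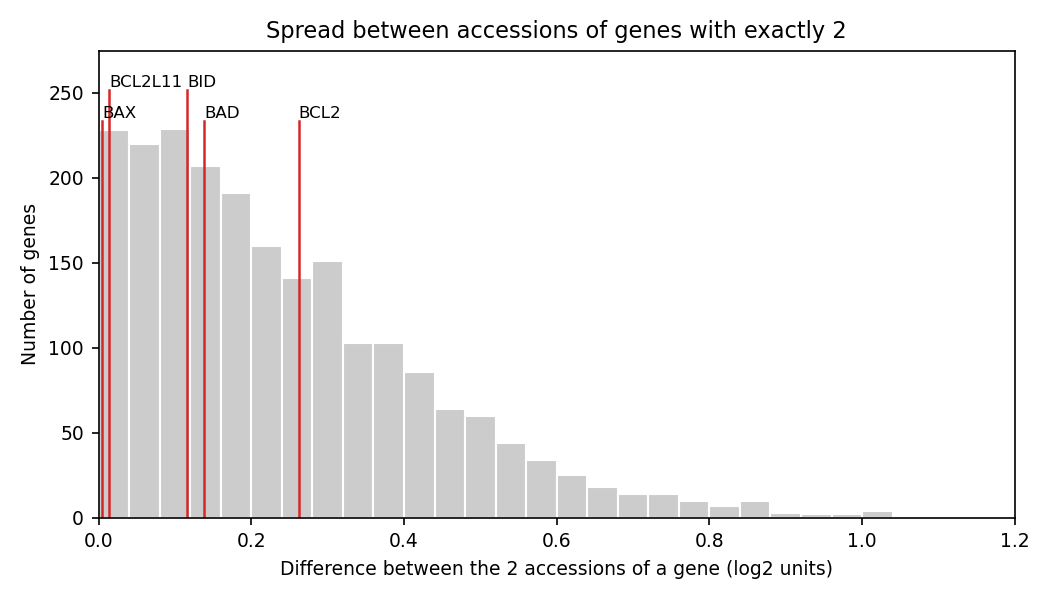
The bars count genes with exactly 2 accessions by the absolute difference between their log2 stability ratios (horizontal axis, log2 units), for 2131 genes. Red lines mark the 5 member genes: BAX at 0.005 and BCL2L11 at 0.014 lie at the left edge, and BCL2 at 0.262 lies beyond the median of 0.198.

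The wider cell death machinery was followed through 5 lists of 56 further genes, all measured. By gene mean, 5 of them pass 1.25-fold and 5 lie below 0.8-fold in the authors' deposited table, where 8.76% and 5.39% of 19468 genes do. The median over the 56 genes is 0.08 and the median over all genes 0.03 in the authors' deposited table.

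The other relatives of BCL2 had a median log2 ratio of 0.02 over 14 genes in the authors' deposited table, with 0 above 1.25-fold and 2 below 0.8-fold. Taking only each gene's first accession, the median is -0.02 in the authors' deposited table. Those 2 are BOK, a pore former related to BAX and BAK, at -0.44 (0.736-fold), and BCL2L13, a mitochondrial relative with a part in mitophagy, at -0.39 (0.762-fold) in the authors' deposited table. BOK is thus lower than every one of the 15 member accessions in the authors' deposited table, including those of BAX. The survival relatives lay nearer to 0, with BCL2L2, which encodes BCL-W, at 0.06, BCL2A1 at -0.16 and BCL2L10 at -0.02 in the authors' deposited table. The BH3-only relatives BIK (0.17) and HRK (0.20) lie above 0 in the authors' deposited table, each lower than BCL2L11. BMF has a mean of 0.08, but its accessions at -0.21, 0.21 and 0.25 lie on both sides of 0.

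Downstream of the members, the genes of mitochondrial release and the apoptosome had a median of 0.07 over 10 genes in the authors' deposited table, with 1 above 1.25-fold and 2 below 0.8-fold, and a median of 0.11 with first accessions alone. In the authors' deposited table ENDOG, a mitochondrial nuclease, passes 1.25-fold with a log2 ratio of 0.57 (1.49-fold). The outer membrane channels VDAC2, which binds BAK, at -0.57 (0.676-fold) and VDAC1 at -0.41 (0.753-fold) are below 0.8-fold in the authors' deposited table. The third channel, VDAC3, is on the other side of 0 at 0.15 in the authors' deposited table. Cytochrome c (CYCS) has -0.14 and caspase 9 (CASP9), the caspase it activates, a mean of 0.07 in the authors' deposited table.

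Caspases and inhibitors of apoptosis had a median of 0.10 over 13 genes (0.008 with first accessions alone) in the authors' deposited table, with 0 above 1.25-fold and 1 below 0.8-fold. The latter is BIRC6, a very large inhibitor of caspases, at -0.36 (0.779-fold) in the authors' deposited table. CASP8, which cleaves BID, has accessions at -0.09, 0.10, 0.26 and 0.45 in the authors' deposited table, the last of them classed as stabilized.

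Death receptor genes had the highest median of the 5 lists, 0.16 over 11 genes in the authors' deposited table, with 2 above 1.25-fold and 0 below 0.8-fold. Those 2 are RIPK1, a kinase that steers between survival and death, at 0.60 (1.52-fold) and the TNF receptor TNFRSF1A at 0.46 (1.37-fold) in the authors' deposited table. Of the 11 gene means, 7 lie above 0 and 4 below. The other receptors, FAS (-0.05), TNFRSF10A (-0.18) and TNFRSF10B (mean -0.14), are among the latter. TNFRSF10B has accessions at -0.40 (0.758-fold), which is below 0.8-fold, and 0.12 in the authors' deposited table. Regulators of the members had a median of 0.11 over 8 genes in the authors' deposited table, with 2 past 1.25-fold and 0 under 0.8-fold. Among these, DDIT3, which encodes CHOP, a stress factor known to act on BCL2L11 and BBC3, has 0.83 (1.77-fold) in the authors' deposited table. HUWE1, a ubiquitin ligase for MCL1, has -0.02, and FBXW7, another ligase for it, a mean of 0.06 in the authors' deposited table. The deubiquitinase USP9X, which protects MCL1, has -0.22 and 0.19 on its accessions in the authors' deposited table, so its mean near 0 stands for neither.

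**Figure D3:**
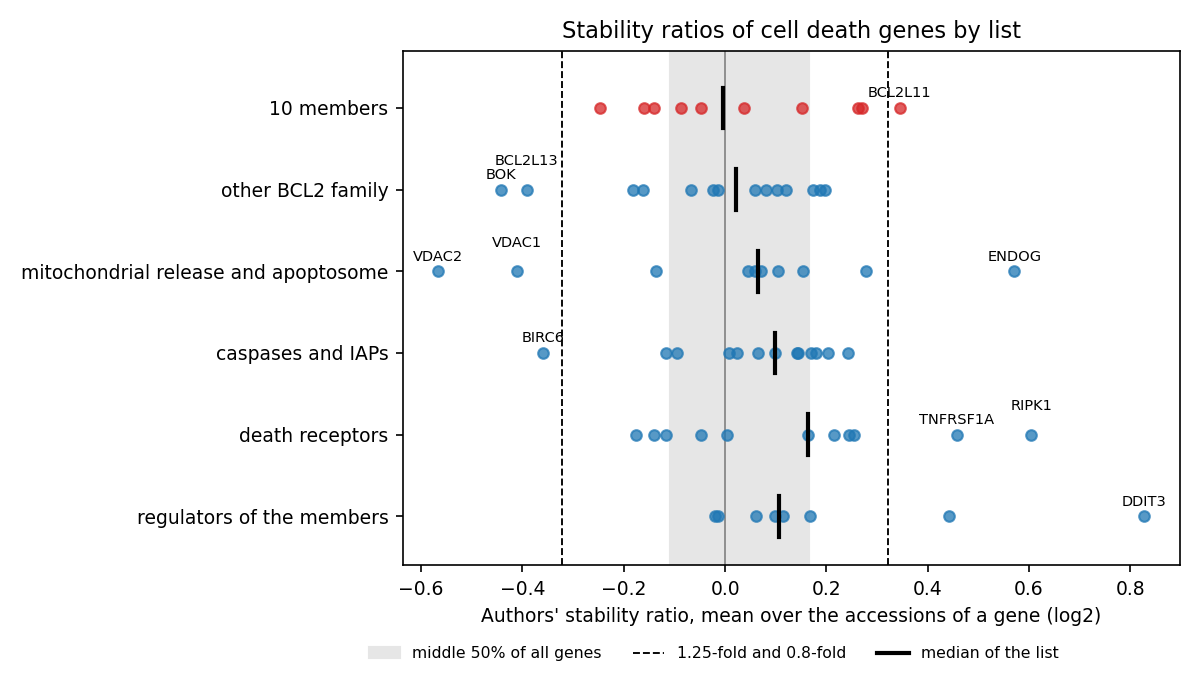
Each point is the log2 stability ratio of 1 gene (horizontal axis, mean over its accessions), with the 10 members in red and 5 lists of cell death genes in blue. The grey band holds the middle 50% of all genes, dashed lines mark 1.25-fold and 0.8-fold, and black ticks are list medians. Labelled genes lie beyond a dashed line, from VDAC2 at -0.57 to DDIT3 at 0.83, and BCL2L11 is the single member among them.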

How the data were processed

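Per the file headers, the authors deposited a log2 ratio per accession, the stability of the transcript with siTARBP2 relative to siControl, and a class made from it. No source used here gives its formula. Also deposited were non-normalized probe intensity values, each with its detection p-value, and intensity values normalized between arrays, as the values show; per the submitters' processing notes lumi was used, version not given. Versions were removed from accessions, and 22411 of 39745 matched 1 symbol in RefSeq (GRCh38.p14, names only), for 19468 genes. Gene values are means over accessions (pandas 2.3.3, numpy 2.4.6). The class is a single threshold: the highest background ratio is 0.3219.

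Array error came from neqc (offset 16) and lmFit in limma 3.58.1 (R 4.3.3), on probes with detection p under 0.01 in at least 2 arrays. The script was tested on simulated data. The labels do not say that arrays came from separate experiments, so the spread of the control arrays may be technical. If siControl-1 and siControl-2 were different siRNAs, it also holds any difference between them. The 2 arrays of each knock-down group carried different siRNAs, so their spread also holds any difference between these siRNAs. The members and lists were chosen with earlier results of these data known. All members are named; of each list, genes beyond 1.25-fold or 0.8-fold, or with fewer than 2 of these the farthest gene on each side, and further genes linked to a member were chosen after their values were seen. A few list genes are not reported here. Ratios have no replicates, so none is tested. Tests on member probes were not run, since no file used here names the genes of probes. The number of arrays limits the precision.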

Additional observations from a re-analysis of the deposited data

How the results depend on the processing

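The count of member accessions above the limit was 2 at 1.25-fold, 0 at 1.5-fold (0.893% of all accessions) and 6 at 1.1-fold (28.2%). The count below was 0 at 0.8-fold and 4 at the reciprocal of 1.1-fold (23.7%). Centring the ratios on the median of all accessions left these accession counts at 2 and 0. Counting equal ratios once left the gene counts at 1 above and 0 below, but could not change them, since no member gene has accessions with equal ratios. Taking only each gene's first accession, list medians went from 0.022 to -0.019 (other BCL2 relatives), 0.065 to 0.11 (mitochondrial release), 0.099 to 0.008 (caspases and inhibitors) and 0.107 to 0.113 (regulators), and stayed at 0.164 (death receptors). The 30 alternative gene values (median, first accession, NM accessions alone) each moved by less than the array standard error, but most could not move. All 15 accessions are NM accessions, and the median of 1 or 2 values is their mean. Only the first accession of the 5 genes with 2 accessions could give another value. The widest move was that of BCL2, from 0.038 to 0.169 with its first accession. The median array standard error was 0.11 with the authors' normalized values, 0.15 without the detection filter and 0.139 to 0.147 with 1 array left out. With replicate number as a block within each arm it was 0.124; the pairing of control arrays by number was not checked, and the ratios carry no replicate number. These array alternatives were chosen after seeing the data. The planned array alternatives for member probes were not run, because probes have no gene names here.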

Other observations

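Several of the listed genes had accessions on opposite sides of 0. APAF1, the scaffold of the apoptosome, has log2 ratios of -0.29 on NM_013229 and 0.41 on NM_181869 in the authors' deposited table. For CASP2 the values are -0.07 and 0.40 in the authors' deposited table. BMF, a BH3-only relative of BCL2L11, has -0.21, 0.21 and 0.25 on its accessions in the authors' deposited table. Of the 16 listed genes with exactly 2 accessions, 9 have them on both sides of 0 in the authors' deposited table, as have 1 of the 5 members and 47.0% of all 2131 such genes, and no difference between these shares was tested. The genes named here were picked for their divergence after the values were seen. For them, as for BCL2, the value of a gene depends on the accession chosen.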
